A study of Mus musculus with 12 samples.

Results

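The genes described here encode the machinery that carries a new protein into the endoplasmic reticulum (ER) and on to the Golgi. A list of 50 gene symbols was taken, covering the translocon, the signal recognition particle, signal peptidase, the oligosaccharyltransferase, the COPII and COPI coats and the receptors that travel with them, and 49 of the 50 were found among the 20069 genes of the table. *Sec62*, an accessory subunit of the translocon, was not found under that symbol. A row under its older symbol *Tloc1*, not counted as a member, had a mean of 117 rpbp and no 24 hr or 12 hr component (limma adjusted p = 0.809 and 0.388). Of the 49 genes, 48 passed the expression minimum (at least 1 sample above 8 reads per base pair, rpbp), as did 10198 genes in all, and *Kdelr3* did not. The rpbp is the mean read coverage over all exons of a gene, regardless of isoform. Levels of different genes are therefore compared per annotated exon length, and annotated exons not used in liver lower the value.

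The mRNA came from the livers of male C57BL/6 mice aged 3 to 6 months, without any mutation or drug, that had lived for at least 2 weeks under 12 hr of light and 12 hr of darkness. Livers were collected every 4 hr from ZT2 to ZT22, with lights on at ZT0 and off at ZT12. The 6 time points were taken in 2 independent series (series 1 and series 2), which gives 12 samples and n = 2 per time point, each time point from different animals. How the mice were fed is not given in the sources used here. The study set rhythms of mRNA beside those of nascent RNA from liver, to ask how much of an mRNA rhythm arises at transcription and how much later. Nascent RNA is not analysed here.

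A protein bound for the blood is recognised by its signal sequence as it leaves the ribosome. The signal recognition particle (SRP) binds that sequence and docks at the SRP receptor on the ER membrane, and the chain then enters the Sec61 channel. Signal peptidase removes the signal sequence, and the oligosaccharyltransferase adds sugar chains to asparagines. Cargo leaves the ER in vesicles with a COPII coat, and vesicles with a COPI coat bring escaped ER proteins and receptors back. Hepatocytes secrete most of the proteins of blood plasma, albumin first among them, so this route is heavily used in liver.

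The summed signal was between 1487000 and 1546000 rpbp per sample, and 8762 to 9108 genes lay above the minimum in each. All 8 hepatocyte markers passed the minimum, and none of the 5 B and plasma cell markers in the table did. None of 9 markers of pancreatic acinar cells was listed. The 2 samples at ZT2 stood apart: *Alb* took 3.26% and 3.50% of the signal there and 6.16% to 8.21% in the other 10 samples. The summed level of the 8 hepatocyte markers was 88550 and 91430 rpbp at ZT2, against 132700 to 171000 rpbp elsewhere. In the limma fit described with the members, 2 of the 8 were lower at ZT2 than at ZT22 and ZT6 (adjusted p below 0.05). Over all genes 6.82% were lower. Of the 8, 0 were higher, against 4.78% of all genes. The sum of the 7 markers other than *Alb* was 38110 and 38310 rpbp at ZT2, and in the other 10 samples between 36440 and 48430 rpbp, with 2 of them below both ZT2 values. The summed level of the 8 Kupffer cell and macrophage markers in the table was 717 rpbp in both ZT2 samples, against 373 to 568 rpbp elsewhere. That of the 4 cholangiocyte markers in the table was 129 and 229 rpbp at ZT2, 144 and 71.5 rpbp at ZT14, and between 63.7 and 144 rpbp in the 10 samples other than ZT2. Of the 2 that passed the minimum, both were higher on average at ZT2 and at ZT14 than at the neighbouring times (median log2 differences of 0.79 and 0.37). The part of these shifts in the results at ZT2 and ZT14 was not tested. In bulk tissue, fewer cells of a type and less RNA per cell cannot be told apart.

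The median member had a mean level of 98.4 rpbp, against 22.9 rpbp for all expressed genes, and its SD over the 12 samples was 12.9% of the mean, against 14.9%. *Sar1b* (the GTPase that starts COPII coats) had the highest mean, 422 rpbp, and *Sec24b* the lowest, 13.0 rpbp. The plot of levels shows all 48.

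**Figure D1:**
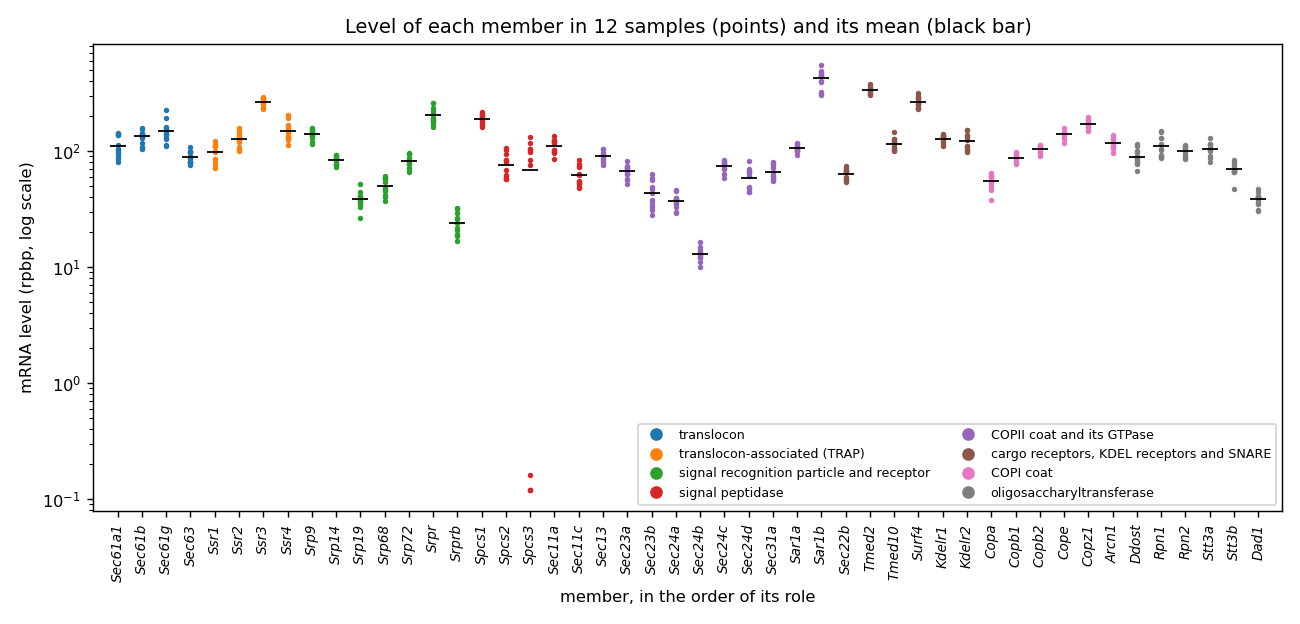
Level of each of the 48 expressed members in the 12 samples (points; rpbp on a log axis) and its mean (black bar), ordered and coloured by role. Most members lie within a narrow band, *Sar1b*, *Tmed2*, *Surf4* and *Ssr3* stand highest, and 4 points of *Spcs3* lie below 1 rpbp.

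The members were first tested for a 24 hr rhythm. By the study's criteria (F24, the share of the variance in a 24 hr wave, above 0.45, its permutation p below 0.05, and the highest over the lowest value above 1.5), 2 of 48 members (4.17%) were rhythmic, *Sar1b* and *Sec24a*, against 19.1% of all expressed genes. Both also passed with an adjusted p, a rule that 4.81% of all genes met. In a limma fit of the 6 time-point means on a log2 scale, 4 members (8.33%) had a 24 hr component at an adjusted p below 0.05, *Sar1b*, *Sec24a*, *Spcs2* and *Sec63*, against 19.8% of all genes. A 12 hr component, meaning 2 highs and 2 lows in a day, was found by limma in 8 members (16.7%), against 4.12% of all genes. The 8 were *Sec23b*, *Ssr1*, *Srprb*, *Spcs2*, *Kdelr2*, *Ssr4*, *Srp68* and *Sec61g*. With samples 4 hr apart, a 12 hr wave cannot be told apart from a 6 hr wave. Any difference among time points was found in 10 members (20.8%), against 17.6% of all genes.

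In each of the 8 members, the fitted 12 hr wave was highest within the first 3 hr after lights on and within the first 3 hr after lights off. Over all genes, 171 of the 420 with a 12 hr component (40.7%) had their highs in those windows, which is 1.68% of the genes tested. The samples at ZT2 and ZT14 were therefore compared with those at ZT6 and ZT18, a comparison chosen after these values had been seen. In 25 of 48 members (52.1%), all 4 samples at ZT2 and ZT14 lay above all 4 samples at ZT6 and ZT18, against 6.61% of all expressed genes. The opposite order, with all 4 samples below, was found in 0 members, against 4.19% of all genes. Within series 1 alone the order held for 37 members (77.1%, against 26.8% of all genes), and within series 2 alone for 32 (66.7%, against 15.4%). A gene with the order over both series has it in each, so neither count could fall below 25. With scaling by the median of ratios the order held for 21 members (43.8%, against 5.60%), 20 of them among the 25.

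**Figure D2:**
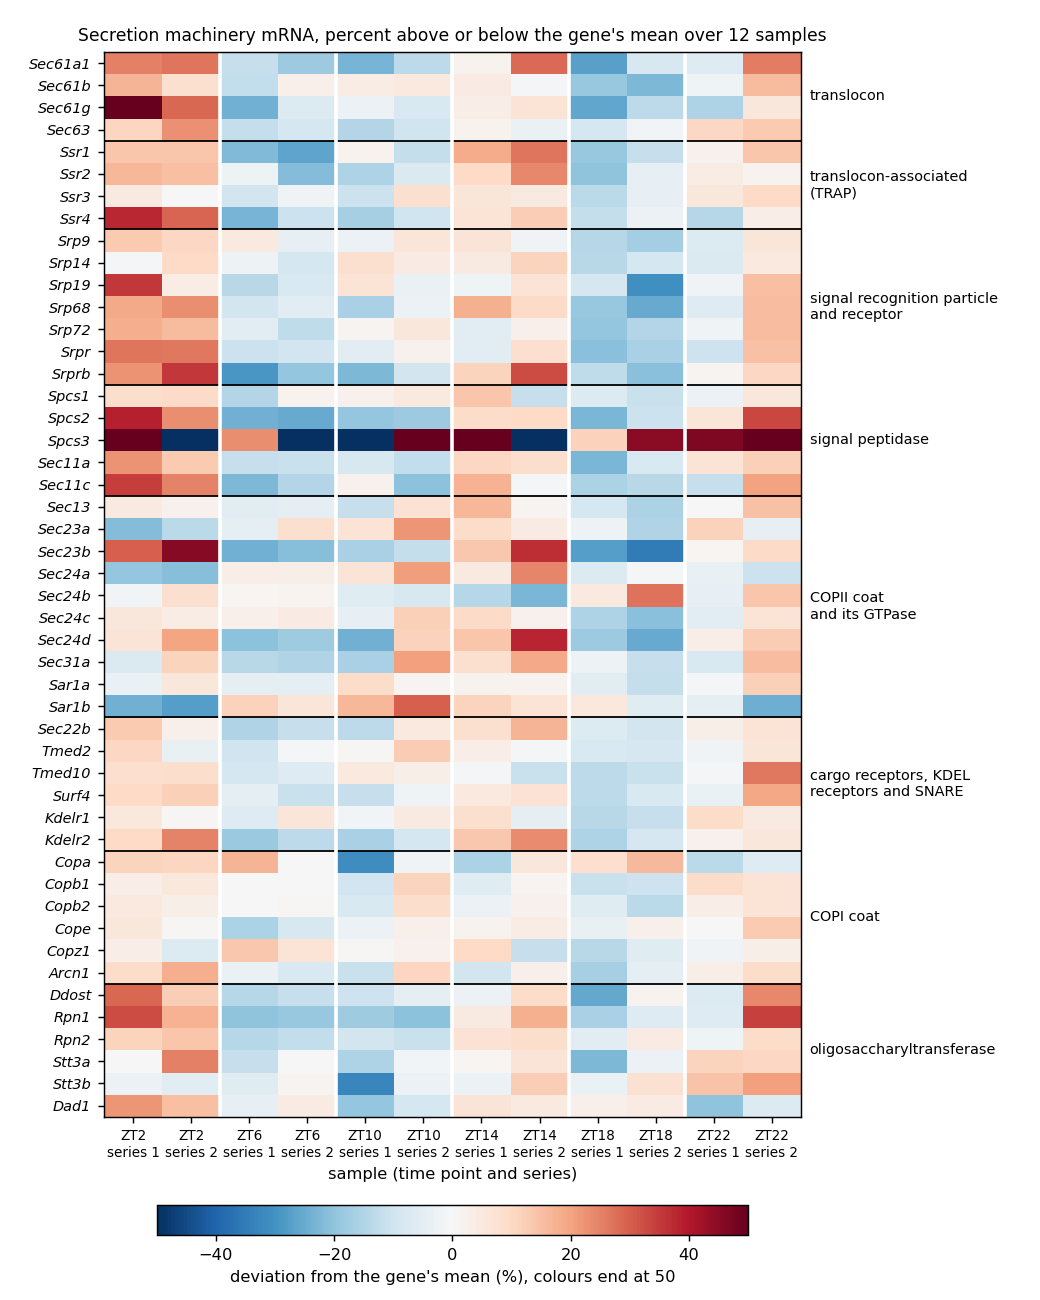
Deviation of each of the 48 members from its own mean over 12 samples (colour, %; red above, blue below), with samples in columns by time point and series, and genes in rows by role. The columns of ZT2 and ZT14 are mostly red and those of ZT6 and ZT18 mostly blue from the translocon to signal peptidase, while the 6 COPI genes show no such order.

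The summed level of 47 members (without *Spcs3*, described with the signal peptidase) was 5929 and 5803 rpbp at ZT2 in series 1 and series 2. It was 4955 and 5067 rpbp at ZT6, 5082 and 5527 rpbp at ZT10, and 5660 and 5714 rpbp at ZT14. At ZT18 it was lowest, at 4723 and 4902 rpbp, and at ZT22 it was 5291 and 5820 rpbp. The samples at ZT2 and ZT14 did not overlap with those at ZT6 and ZT18, and the samples at ZT22 differed between the series, series 2 being the higher one. The median member stood 10.3% and 11.1% above its mean at ZT2, 6.19% and 6.64% above at ZT14. Its deviation was -10.2% and -7.56% at ZT6, and -13.5% and -9.10% at ZT18. At ZT10 it was -9.25% and 1.20%, and at ZT22 -1.60% and 10.2%. Series 2 was the higher at every time point, most of all at ZT10 and ZT22. The median over all expressed genes was between -3.81% and 2.91% in every sample.

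Each high was then tested against its neighbours in the same limma fit, a comparison also chosen after these values had been seen. It uses the samples that gave the 12 hr calls, so it is no separate support for them. At ZT2, 7 members (14.6%) were higher than the mean of ZT22 and ZT6 at an adjusted p below 0.05, against 4.78% of all genes. They were *Sec23b*, *Ssr4*, *Sec61g*, *Srprb*, *Spcs2*, *Dad1* and *Srpr*, and 0 members were lower, against 6.82% of all genes. At ZT14, 0 members passed the adjusted p of limma against the mean of ZT10 and ZT18, and 0.0196% of all genes did. At an unadjusted p below 0.05, 14 members (29.2%) were higher at ZT14, against 8.91% of all genes, and 1 was lower, *Sec24b*. Without either ZT2 sample the 7 calls at ZT2 became 0, while those over all genes fell from 487 to 49. They became 2, 3 and 4 without ZT6 of series 1, ZT22 of series 1 and ZT6 of series 2 (188, 241 and 251 over all genes). Without ZT14 of series 2 the 14 at ZT14 became 8 (909 and 715 over all genes). The median difference of the members was 0.17 at ZT2 and 0.18 at ZT14 on the log2 scale, against 0.03 and 0.02 over all genes. Both differences were above 0 in 38 members (79.2%), against 32.6% of all genes. The 2 differences share no sample, and across the 48 members their rank correlation was 0.71 (0.18 across the 10198 genes). This is a description, since the members come from the same 12 libraries.

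**Figure D3:**
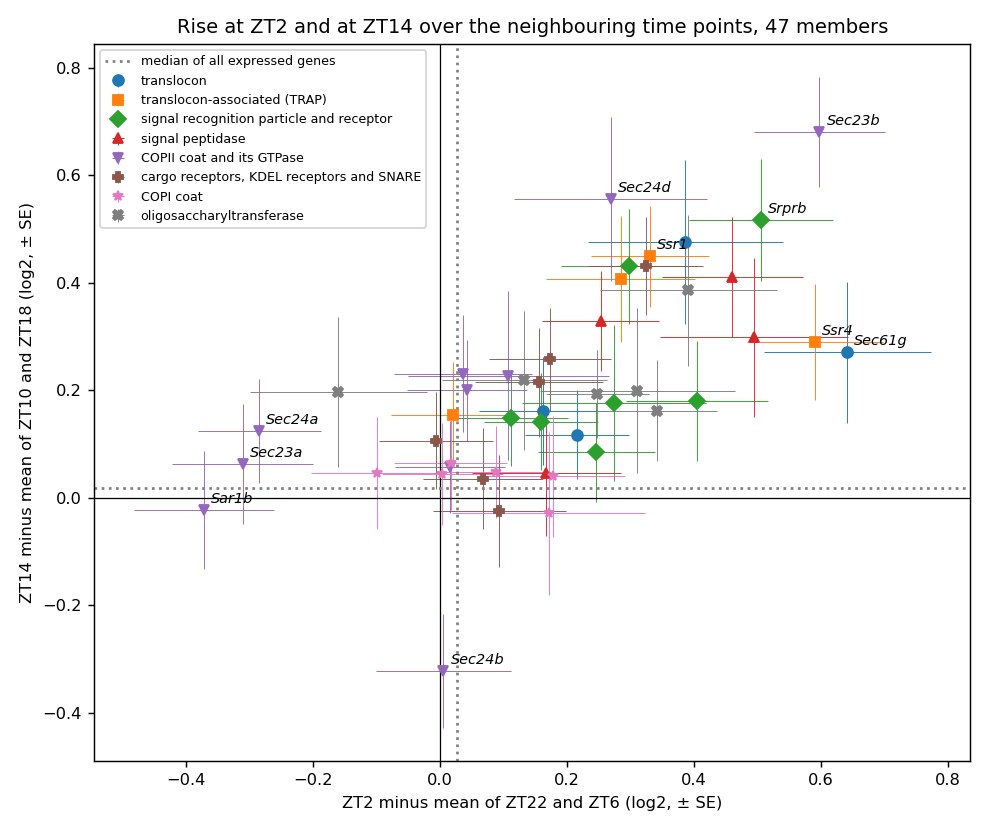
Difference of ZT2 from the mean of ZT22 and ZT6 (x axis) and of ZT14 from the mean of ZT10 and ZT18 (y axis), on the log2 scale with the SE, for 47 members by role (without *Spcs3*); dotted lines are the medians of all expressed genes, 0.03 and 0.02. Most members lie in the upper right, led by *Sec23b*, while *Sar1b*, *Sec24a* and *Sec23a* lie to the left of 0.

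All 4 translocon genes and all 4 genes of the TRAP complex had both differences above 0, against 32.6% of all genes. *Sec61g* (chromosome 11, 16400533 to 16408487, mm9) encodes the gamma subunit of the channel. It was at 226 and 192 rpbp at ZT2 in the 2 series, 114 and 139 rpbp at ZT6, 145 and 138 rpbp at ZT10, 154 and 159.6 rpbp at ZT14, 111 and 129 rpbp at ZT18, and 126 and 158 rpbp at ZT22. The ZT2 samples were above every other one, and the 12 hr component was 0.65 ± 0.12 (log2 peak to trough, SE), a 1.57-fold difference (limma, adjusted p = 0.0487). This call was lost in 10 of the 12 fits that leave out 1 sample, without an expression minimum (adjusted p = 0.0937), with a replicate block (0.0652) and with a pseudocount of 0.1 (0.0562). *Sec61a1*, which forms the pore itself, had a mean of 111 rpbp and was at 138 and 140.0 rpbp at ZT2 and at 112 and 142 rpbp at ZT14. Its 4 samples at ZT6 and ZT18 lay between 80.7 and 102 rpbp, and its 12 hr component did not pass (adjusted p = 0.0841). *Sec61b*, the beta subunit, had a mean of 134 rpbp and overlapped between those times (adjusted p = 0.0896 for 12 hr).

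*Sec63* (chromosome 10, 42481302 to 42552320) helps certain chains into the channel and works with the luminal chaperone BiP. Its levels in series 1 and series 2 were 98.1 and 109 rpbp at ZT2, 78.1 and 81.0 rpbp at ZT6, 75.8 and 79.8 rpbp at ZT10, 90.1 and 85.6 rpbp at ZT14, 80.7 and 87.6 rpbp at ZT18, and 97.8 and 100.4 rpbp at ZT22. The 4 samples around lights on, at ZT22 and ZT2, were above the other 8. Its 24 hr component peaked at 23.0 hr, with a log2 peak to trough of 0.35 ± 0.08 (SE, limma adjusted p = 0.0356), but its highest value was only 1.43 times its lowest, under the limit of the study. That call was lost in 11 of the 12 fits that leave out 1 sample.

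TRAP (*Ssr1* to *Ssr4*) sits beside the channel and assists the entry of some signal sequences. All 4 of its genes had the ZT2 and ZT14 samples above the ZT6 and ZT18 samples (6.61% of all genes). Of the 4, 2 passed the 12 hr test (4.12% of all genes). *Ssr1* (chromosome 13, 38063270 to 38086059) was at 111 and 111 rpbp at ZT2, 75.8 and 71.5 rpbp at ZT6, 99.0 and 85.7 rpbp at ZT10, 115 and 123 rpbp at ZT14, 78.8 and 85.8 rpbp at ZT18, and 99.4 and 110.5 rpbp at ZT22. Here the ZT14 samples were the highest, and the 12 hr component was 1.57-fold (log2 0.65 ± 0.09, SE, adjusted p = 0.0192). Its call was lost in 7 of the 12 fits that leave out 1 sample. *Ssr4* (chromosome X, 71032367 to 71036169) was at 204 and 191 rpbp at ZT2, 114 and 132 rpbp at ZT6, 123 and 133 rpbp at ZT10, 158 and 166 rpbp at ZT14, 131 and 144 rpbp at ZT18, and 127 and 153 rpbp at ZT22. Its 2 samples at ZT2 were the highest, followed by those at ZT14, and the component was 1.5-fold (log2 0.59 ± 0.10, SE, adjusted p = 0.0373). This call was lost in 8 of the 12 fits that leave out 1 sample, and without an expression minimum (limma adjusted p = 0.0717). *Ssr2* had a mean of 128 rpbp and a 12 hr adjusted p of 0.0769. *Ssr3*, the most abundant of the 4 at 265 rpbp, varied least, with an SD of 7.81% of its mean (adjusted p = 0.333).

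**Figure D4:**
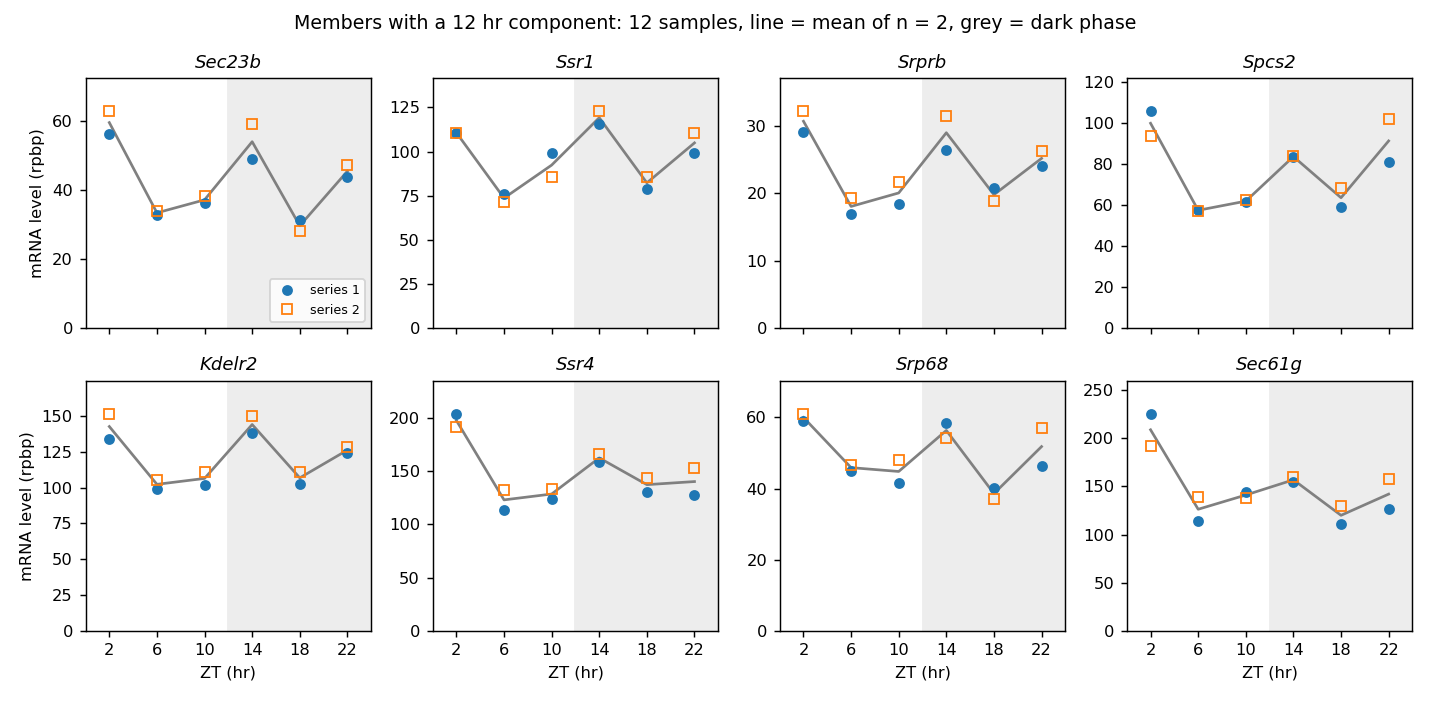
mRNA level (rpbp, axes from 0) against ZT in hr for the 8 members with a 12 hr component, with series 1 as filled circles, series 2 as open squares and the mean of the 2 as a line; grey marks the dark phase. In all 8 the means at ZT2 and ZT14 stand above their neighbours, and the lowest mean of the light phase is at ZT6 in 7 of them and at ZT10 in *Srp68*. The mean at ZT2 is above that at ZT14 except in *Ssr1* and *Kdelr2*.

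Of the 7 genes of SRP and its receptor, all 7 had both differences above 0 (32.6% of all genes). The samples did not overlap in 5 (6.61% of all genes), and 2 passed the 12 hr test (4.12%). *Srp68* (chromosome 11, 116106480 to 116135531) encodes a protein that binds the RNA of the particle together with SRP72. Its levels were 58.9 and 61.0 rpbp at ZT2, 45.04 and 46.7 rpbp at ZT6, 41.5 and 48.1 rpbp at ZT10, 58.4 and 54.3 rpbp at ZT14, 40.2 and 37.0 rpbp at ZT18, and 46.4 and 57.2 rpbp at ZT22. The ZT18 samples were the lowest, and the 12 hr component was 1.44-fold (log2 0.53 ± 0.10, SE, adjusted p = 0.0485). It was lost in 8 of the 12 fits that leave out 1 sample, without an expression minimum (adjusted p = 0.0900), with a replicate block (0.0686), with a pseudocount of 0.1 (0.0540) and with scaling by the median of ratios (0.0513). *Srp72* had a mean of 81.9 rpbp and missed the limit (adjusted p = 0.0766), as did *Srp19* at 38.3 rpbp (0.149). *Srp9* at 139.5 rpbp (0.200) and *Srp14* at 83.9 rpbp (0.190), whose products form the domain that slows translation, missed it too.

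*Srpr*, the alpha subunit of the receptor, had a mean of 205 rpbp and was at 260.3 and 259 rpbp at ZT2, against 162 to 235 rpbp in the other 10 samples. Its difference at ZT2 was 0.41 ± 0.11 (log2, SE, adjusted p = 0.0499), and its 12 hr component did not pass (adjusted p = 0.0749). *Srprb* (chromosome 9, 103090363 to 103104467), the membrane anchor of the receptor, had a mean of only 23.8 rpbp. It was at 29.1 and 32.2 rpbp at ZT2, 16.8 and 19.2 rpbp at ZT6, 18.4 and 21.6 rpbp at ZT10, 26.4 and 31.5 rpbp at ZT14, 20.8 and 18.8 rpbp at ZT18, and 24.1 and 26.2 rpbp at ZT22. The 12 hr component was 1.66-fold (log2 0.73 ± 0.11, SE, adjusted p = 0.0223), and the call was lost in 7 of the 12 fits that leave out 1 sample. In the mm9 annotation (GENCODE), *Srprb* shares 21.0% of its exon bases with *Trf*, the transferrin gene on the same strand. *Trf* was at 12100 rpbp on average and had a 12 hr component of 0.62 on the log2 scale that peaked at 1.48 hr (adjusted p = 0.0373). The part of *Trf* in the *Srprb* values was not tested.

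Of the 5 signal peptidase genes, 1 passed the 12 hr test (4.12% of all genes). *Spcs2* (chromosome 7, 106987513 to 107007403), an accessory subunit, was at 106 and 93.9 rpbp at ZT2, 57.8 and 57.1 rpbp at ZT6, 61.4 and 62.4 rpbp at ZT10, 83.3 and 84.0 rpbp at ZT14, 58.9 and 68.2 rpbp at ZT18, and 80.8 and 102 rpbp at ZT22. It alone among the members passed both tests. The 12 hr component was 1.60-fold (log2 0.68 ± 0.11, SE, adjusted p = 0.0265) and the 24 hr component 1.41-fold with its peak at 22.5 hr (log2 0.50 ± 0.11, SE, adjusted p = 0.0287). The 12 hr call was lost in 7 and the 24 hr call in 8 of the 12 fits that leave out 1 sample. Both were lost without an expression minimum, and the 24 hr call also when the 24 hr wave alone was fitted. *Sec11a* and *Sec11c* encode the alternative catalytic subunits, and *Sec11a* was the higher in 12 of 12 samples (109.8 ± 15.2 against 62.2 ± 12.2 rpbp, SD over 12 samples). Both had samples at ZT2 and ZT14 above those at ZT6 and ZT18, with adjusted p values of 0.0511 and 0.0857 for 12 hr. *Spcs1* had a mean of 189 rpbp and overlapped.

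*Spcs3* (chromosome 8, 55605787 to 55615351) encodes a subunit that the enzyme needs. It was listed at 0.12 to 0.16 rpbp in 4 samples, ZT10 of series 1 and ZT2, ZT6 and ZT14 of series 2, and at 75.9 to 132 rpbp in the other 8. No time point had low values in both series, and no other expressed member was near 0 in these samples. Whether the low values are levels of the mRNA or failed estimates cannot be told from the table. *Spcs3* is left out of the sums but is one of the 48 in the counts, among them the 37 members of series 1, and without it the rank correlation of the 2 differences was 0.69.

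The oligosaccharyltransferase had 4 of 6 genes without overlap between ZT2 or ZT14 and ZT6 or ZT18 (6.61% of all genes). Yet 0 of 6 passed the adjusted p of limma for 12 hr (4.12% of all genes). An unadjusted p below 0.05 was found in 3, and over all genes in 2560 of 10198. *Rpn1* (ribophorin I, mean 110.2 rpbp) was at 146 and 129.5 rpbp at ZT2, at 115 and 129.7 rpbp at ZT14, and between 88.1 and 103 rpbp at ZT6 and ZT18 (adjusted p = 0.0841). *Rpn2* (ribophorin II, 99.5 rpbp) was at 107 and 108 rpbp at ZT14 and at 111 and 114 rpbp at ZT2, with the other times between 85.4 and 109 rpbp (adjusted p = 0.0988). *Dad1*, a small membrane subunit, had a mean of 38.3 rpbp and a 12 hr adjusted p of 0.0586. *Ddost* had a mean of 89.5 rpbp and overlapped. The 2 catalytic subunits differed in level: *Stt3a*, which acts on chains in the channel, was above *Stt3b*, which acts after them, in 12 of 12 samples (104 ± 13.2 against 69.8 ± 9.39 rpbp, SD over 12 samples).

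The COPII genes did not behave as a block. *Sec23b* (chromosome 2, 144381965 to 144416485), one of 2 genes for the inner coat protein SEC23, had the largest 12 hr component of the 47 members other than *Spcs3*. It was at 56.2 and 62.9 rpbp at ZT2, 32.8 and 34.0 rpbp at ZT6, 36.2 and 38.1 rpbp at ZT10, 48.9 and 59.0 rpbp at ZT14, 31.2 and 28.0 rpbp at ZT18, and 43.6 and 47.2 rpbp at ZT22. The 4 samples at ZT2 and ZT14 were above all 8 others. The component was 1.94-fold (log2 0.96 ± 0.10, SE, adjusted p = 0.00533), and the call was kept in all 12 fits that leave out 1 sample. Its paralog *Sec23a* had a mean of 66.6 ± 8.41 rpbp (SD over 12 samples) and was lowest at ZT2, at 52.1 and 57.7 rpbp, apart from 56.6 rpbp at ZT18 of series 2. Its 12 hr adjusted p was 0.281. *Sec23a* was above *Sec23b* in 10 of 12 samples, the exceptions being both samples at ZT2. The ratio of *Sec23b* to *Sec23a* was 1.08 and 1.09 at ZT2, 0.673 and 0.852 at ZT14, 0.588 and 0.740 at ZT22, and 0.469 to 0.516 in the 6 samples between.

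The 4 genes for SEC24, the coat protein that picks cargo, differed in level. *Sec24c* had a mean of 74.7 ± 7.42 rpbp (SD over 12 samples), *Sec24d* 58.9 ± 12.1, *Sec24a* 37.3 ± 5.16 and *Sec24b* 13.0 ± 1.69 rpbp. *Sec24c* was above *Sec24d* in 11 of 12 samples, and every other pair kept the same order in 12 of 12. *Sec24d* was at 62.8 and 70.5 rpbp at ZT2 and at 67.2 and 81.4 rpbp at ZT14, against 44.0 to 48.6 rpbp at ZT6 and ZT18 (adjusted p = 0.0681 for 12 hr). *Sec24b* went the other way at ZT14, with 11.1 and 10.04 rpbp, its 2 lowest values (log2 difference of -0.32 ± 0.11, SE, limma adjusted p = 0.220). *Sec13* and *Sec31a*, which form the outer cage, had means of 89.96 and 66.3 rpbp and 12 hr adjusted p values of 0.271 and 0.372.

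*Sar1b* and *Sec24a*, the members that were rhythmic by the study's criteria, had their lowest mean levels at ZT2. *Sar1b* (chromosome 11, 51577189 to 51605427), needed for the export of large lipoprotein particles, was at 321 and 305 rpbp at ZT2, 472 and 447 rpbp at ZT6, 493 and 548 rpbp at ZT10, 469 and 451 rpbp at ZT14, 444 and 397 rpbp at ZT18, and 402 and 319 rpbp at ZT22. It peaked at 11.5 hr and differed 1.55-fold between peak and trough of the 24 hr wave (log2 0.63 ± 0.10, SE, limma adjusted p = 0.0102; F24 0.768, permutation p = 0.0022). *Sec24a* (chromosome 11, 51505765 to 51577136) was at 30.0 and 29.4 rpbp at ZT2, 38.4 and 38.3 rpbp at ZT6, 39.7 and 45.04 rpbp at ZT10, 39.0 and 46.4 rpbp at ZT14, 34.8 and 37.0 rpbp at ZT18, and 35.9 and 33.2 rpbp at ZT22. It peaked at 12.1 hr (log2 0.45 ± 0.09, SE, adjusted p = 0.0233; F24 0.735, permutation p = 0.0017). With 1 sample left out, *Sar1b* kept the limma call in all 12 fits and *Sec24a* lost it in 5 of them. With amplitudes from time-point means *Sec24a* also lost the call of the study's criteria. *Sar1a*, the other SAR1 gene, was lower than *Sar1b* in 12 of 12 samples (105 ± 7.05 against 422 ± 75.7 rpbp, SD over 12 samples). It was also one of the 3 steadiest members: 102 and 111 rpbp at ZT2, 99.8 and 100.4 rpbp at ZT6, 115 and 106 rpbp at ZT10, 107 and 107 rpbp at ZT14, 99.1 and 92.5 rpbp at ZT18, and 104 and 118 rpbp at ZT22. The ratio of *Sar1b* to *Sar1a* was 3.15 and 2.75 at ZT2 and 4.30 and 5.16 at ZT10.

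These 2 genes are neighbours. In the mm9 annotation they lie head to head on chromosome 11, *Sec24a* on the minus strand and *Sar1b* on the plus strand, with 52 bases between their outermost starts, and they were the only members within 100000 bases of each other. The stretch between them, chr11:51577137-51577188 (mm9, plus strand), is shown because it separates the starts of the 2 members that shared this 24 hr pattern. It is 75% G and C. It holds no E-box (CACGTG), no D-box (TTATGCAA) and no AGGTCA, the core of a ROR element, on either strand. These motifs were found in 1.78%, 0.122% and 2.93% of the 52-base stretches that end at a start in the RefSeq table. Their absence says only that these letters are not in these 52 bases. The longer RefSeq promoter window of *Sec24a* does hold AGGTCA, as 16.3% of all such windows do, and these letters alone are not a whole ROR element.
Sec24a-Sar1b: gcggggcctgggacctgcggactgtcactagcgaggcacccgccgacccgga

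**Figure D5:**
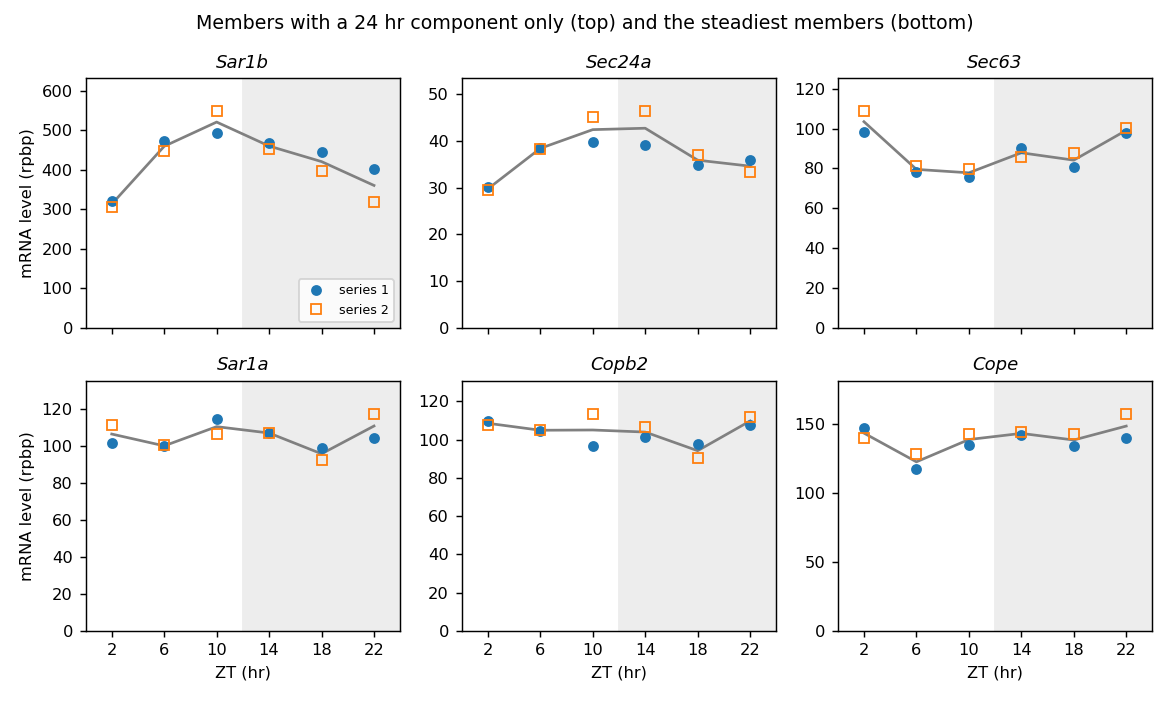
mRNA level (rpbp, axes from 0) against ZT in hr for *Sar1b*, *Sec24a* and *Sec63* (top), which had a 24 hr but no 12 hr component, and for the 3 steadiest members, *Sar1a*, *Copb2* and *Cope* (bottom); symbols as in the plot of 12 hr profiles. *Sar1b* and *Sec24a* are lowest on average at ZT2, *Sec63* is highest at ZT2 and ZT22, and the steady members stay within 1.25 to 1.34 times their lowest value.

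The 6 genes of the COPI coat, which returns material from the Golgi, had both differences above 0 in 4 cases (66.7%, against 32.6% of all genes). Of the 6, 0 passed the adjusted p of any limma test. An unadjusted p below 0.05 for 12 hr was found in 0, against 2560 of 10198 genes. The samples at ZT2 and ZT14 were all above those at ZT6 and ZT18 in 0, against 6.61% of all genes. With 6 genes, 0 is close to that share. *Copb2* was at 109.7 and 108 rpbp at ZT2, 105 and 105 rpbp at ZT6, 96.6 and 114 rpbp at ZT10, 101 and 107 rpbp at ZT14, 97.9 and 90.6 rpbp at ZT18, and 108 and 112 rpbp at ZT22. Its SD was 6.45% of the mean, the lowest of all 48 members. *Cope* was at 147 and 139.6 rpbp at ZT2, 117 and 128 rpbp at ZT6, 135 and 142 rpbp at ZT10, 142 and 144 rpbp at ZT14, 134 and 142 rpbp at ZT18, and 139 and 157 rpbp at ZT22. The means of the others were 172 rpbp for *Copz1*, 116 rpbp for *Arcn1*, 87.7 rpbp for *Copb1* and 55.1 rpbp for *Copa*. The summed COPI level was between 615 and 719 rpbp, at 714 and 699 rpbp at ZT2, 682 and 667 rpbp at ZT6, 666 and 670 rpbp at ZT14, and 615 and 648 rpbp at ZT18. The samples at ZT14 overlapped with those at ZT6, while those at ZT2 lay above them and those at ZT18 were below all 6.

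Among the receptors, *Kdelr2* (chromosome 5, 144165499 to 144182951) stood out. KDEL receptors return ER chaperones from the Golgi. *Kdelr2* was at 134 and 152 rpbp at ZT2, 99.0 and 106 rpbp at ZT6, 102 and 111 rpbp at ZT10, 138 and 150.2 rpbp at ZT14, 102 and 111 rpbp at ZT18, and 124 and 128 rpbp at ZT22. All 4 samples at ZT2 and ZT14 were above the other 8, and the 12 hr component was 1.44-fold (log2 0.53 ± 0.09, SE, adjusted p = 0.0288). The call was lost in 8 of the 12 fits that leave out 1 sample, and without an expression minimum (limma adjusted p = 0.0555). *Kdelr1* had nearly the same mean, 128 ± 9.78 against 121 ± 18.9 rpbp (SD over 12 samples), and a 12 hr adjusted p of 0.322. The difference between the responses of these paralogs was not tested. *Kdelr3* was listed at 0 to 1.20 rpbp in all samples. The cargo receptor *Surf4* had a mean of 265 rpbp and did not overlap (231 to 253 rpbp at ZT6 and ZT18, 278 to 297 rpbp at ZT2 and ZT14, adjusted p = 0.179). *Sec22b*, a SNARE of vesicle fusion, did not overlap either (mean 63.7 rpbp, adjusted p = 0.109). The p24 proteins *Tmed2* (337 rpbp) and *Tmed10* (116 rpbp) overlapped.

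The promoters were searched because members of this pathway are textbook targets of the unfolded protein response, whose factors bind TGACGTGG. RefSeq windows (GRCm38.p6, 250 bases before to 50 after a start) were found for 40 of the 49 genes, 43 windows in all. TGACGTGG, on either strand, was in the windows of 5 of the 40 genes (*Sec24d*, *Sec23a*, *Copb1*, *Copb2* and *Kdelr3*), or 11.6% of the 43 windows against 0.676% of all 32851 windows. Its core GACGTG, which every such match also contains, was in 14 of the 43 windows (32.6%, against 6.38%). CACGTG was in 3 of them (6.98%, against 7.15%), and the ER stress response element (CCAAT and CCACG with 9 bases between) was in 0 (against 0.119%). A match is a description of the letters and not a bound site. The other genes with the core were *Copz1*, *Dad1*, *Sar1a*, *Sec13*, *Sec24c*, *Sec63*, *Srp14*, *Srpr* and *Ssr1*. Of the members with a 12 hr component, only *Ssr1* was found with the core, and none with TGACGTGG. Members without a window could not be searched. The stretches around 4 of the matches are shown as examples, from a TRAP, a COPII, a COPI and a receptor gene, on the strand of the gene with the motif or its reverse complement in capitals. They are chr13:37994209-37994279 (minus strand), chr3:123267424-123267495 (plus), chr7:114254681-114254754 (minus) and chr15:79516332-79516407 (plus), in this order.
Ssr1: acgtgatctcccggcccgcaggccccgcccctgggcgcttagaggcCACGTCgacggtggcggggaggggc
Sec24d: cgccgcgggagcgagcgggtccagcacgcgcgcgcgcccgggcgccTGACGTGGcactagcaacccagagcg
Copb1: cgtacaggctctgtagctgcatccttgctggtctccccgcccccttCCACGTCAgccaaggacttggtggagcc
Kdelr3: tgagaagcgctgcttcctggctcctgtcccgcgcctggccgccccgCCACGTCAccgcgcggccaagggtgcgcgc

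Other genes of the pathway were taken as lists, to be read against the same background percentages. Over all genes, 4.12% passed the 12 hr test of limma and 19.8% the 24 hr test, and 2560 of 10198 had an unadjusted 12 hr p below 0.05. All samples at ZT2 and ZT14 lay above those at ZT6 and ZT18 in 6.61%, and below them in 4.19%. Both differences were above 0 in 32.6%. Of 25 expressed ER chaperones and folding enzymes, 1 passed the 12 hr test (*Fkbp11*, adjusted p = 0.0220, peak at 1.77 hr) and 8 the 24 hr test, 9 had all samples at ZT2 and ZT14 above those at ZT6 and ZT18 (the order counted for each list here), and both differences were above 0 in 21. Their median differences, 0.34 at ZT2 and 0.34 at ZT14 on the log2 scale, were larger than those of the members. Of 43 genes of ER exit, tethering and COPI regulation, 4 passed the 12 hr test, led by the p24 gene *Tmed9* (adjusted p = 0.0159, peak at 0.937 hr), and 18 had that order. Of 18 genes of ER-associated degradation, 6 had it and 1 the opposite one, 1 passed for 12 hr (*Ube2g2*) and 3 for 24 hr, led by *Herpud1* (adjusted p = 0.00293, peak at 11.2 hr). Of 25 genes that build or trim N-glycans, 7 had it and 1 the opposite one, and 3 passed for 12 hr, led by *Alg3* (adjusted p = 0.0155, peak at 1.51 hr). Of 8 further translocon and targeting subunits, 3 had it and 0 passed for 12 hr in limma (3 at an unadjusted p below 0.05). Of 10 ER stress sensors and factors, 4 had it and 1 passed for 12 hr (*Wfs1*). Of the 30 cargo genes for plasma proteins, 3 had it and 3 the opposite one, 4 passed for 12 hr and 11 for 24 hr. *Serpina3k*, a plasma protease inhibitor, had the lowest p of the cargo in both tests (adjusted p = 0.00123 for 24 hr, peak at 22.1 hr).

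*Sec23b* was the only member to keep its 12 hr call in every fit that leaves out 1 sample. With 1 sample left out, the number of members called lay between 1 and 11, and the number over all genes between 46 and 585. It was 1, *Sec23b*, without either ZT2 sample, either ZT6 sample, ZT14 of series 2 or ZT18 of series 1. It was 2 without ZT14 of series 1 and 4 without ZT18 of series 2. Without both ZT2 samples, which stand apart in *Alb*, 0 members and 1 of all genes were called, and without both ZT14 samples 1 member (*Sec23b*) and 149 genes were. With 1 sample left out, the log2 size of the 12 hr component of *Ssr1* lay between 0.61 and 0.68, that of *Srprb* between 0.66 and 0.81 and that of *Sec61g* between 0.58 and 0.73.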

How the data were processed

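Poly(A) RNA of 12 livers was sequenced from TruSeq libraries. The authors mapped the sequences to mm9 with TopHat, kept unique places, summed base coverage over the flattened exons of a gene regardless of strand and divided it by exon length. The deposited values are this signal, a mean coverage (rpbp), scaled by the authors to 10000000 uniquely mapped sequences. The submitters' processing notes also name CASAVA 1.8. The last time point is headed ZT20 in the table and was taken as ZT22, as in the labels. Deposited columns of the authors' F24 score, phase and p-value were not used. Coverage is not a read count, so no count test and no counting interval is given.

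Here the signal was multiplied by 4, the scale of 40000000 to which the study's minimum of 8 rpbp refers. F24 used 10000 random orders (seed 1). limma 3.58.1 (R 4.3.3) was fitted to log2(rpbp + 1) with a mean per time point (6 residual and 2.76 prior degrees of freedom), and F-tests of the 24 hr, 12 hr and any difference were adjusted by Benjamini-Hochberg over 10198 genes. Fold differences understate those of low genes. With 2 samples a time point, p-values measure the spread between these samples only. Members and lists were chosen with earlier results of these data known. Every member is named; all 12 values are printed for those passing a 24 hr or 12 hr test, those rhythmic by the study's criteria and the 3 with the lowest SD over mean, and paralogs are set side by side. For *Spcs3* and *Trf*, values were added after they were seen. Scripts were tested on simulated data. The scripts ran on pandas 2.3.3, numpy 2.4.6, scipy 1.17.1 and matplotlib 3.10.9 under Python 3.11.15.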

Additional observations from a re-analysis of the deposited data

How the results depend on the processing

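In the 11 members called for 12 or 24 hr, the peak time of the component (for *Spcs2* the 12 hr one, its 24 hr peak not being compared) moved by less than 6 hr (24 hr wave) or 3 hr (12 hr wave) under every alternative that fitted it, other than those without both ZT2 or both ZT14 samples, where it was not compared. Sizes moved too: the log2 peak to trough of *Sec24a* (24 hr) went from 0.45 to 0.62 without series 1 and 0.29 without series 2, and that of *Sec61g* (12 hr) from 0.65 to 0.45 and 0.85. The members rhythmic by the study's criteria numbered 1 with amplitudes from time-point means and 0 to 3 with samples or a series left out. The 24 hr calls of limma fell from 4 to 2 without an expression minimum, where more genes are tested (2023 to 1550 over all genes), and to 2 when only the 24 hr wave was fitted (878); they ranged from 0 to 4 with samples left out, and were 1 without ZT2 of series 1, ZT14 of series 2 or ZT22 of series 2. The 12 hr calls fell from 8 to 3 without a minimum (420 to 201 over all genes) and ranged from 0 to 11. They were 0 without both ZT2 samples and 1 without both ZT14 samples, settings chosen after the data were seen. Calls of any difference were 4 without a minimum (1792 to 1216 over all genes), and 2 to 11 with samples left out. The 7 calls at ZT2 were 3 without a minimum (487 to 313). With 1 series alone no spread within time points is left, so the test of any difference could not be run, the 24 hr and 12 hr tests of limma called 0 of all genes, and the study's criteria called 369 (without series 1) and 286 (without series 2) genes and 0 members. An intensity trend raised the 12 hr calls to 11 (611 over all genes), and a pseudocount of 0.1 lowered them to 6 (348). The main fits held no series term. The difference between the series correlated above 0.1 across all expressed genes in 2 of 15 pairs of time points (median -0.03, highest 0.21). Among the members, the median deviation from the mean was higher in series 2 at every time point. With a replicate block, 6 of the 8 members kept the 12 hr call (*Srp68* and *Sec61g* lost it), the 24 hr calls stayed at 4, the study's criteria gave 3 and any difference 7. No other alternative moved a count by more than 1.5 times. The depth behind each value is not known from coverage.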
